A study of Mus musculus with 3 samples.

Results

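Zbp1, Adar and 6 genes of the necroptosis pathway (Ripk1, Ripk3, Mlkl, Casp8, Fadd and Cflar) were examined in hippocampal RNA of 10-month-old mice. The 8 genes were chosen by name and made up 8 of the 54532 genes in the table of expression values. All animals were on a C57BL/6 background. The WT group is labelled as wild type. PS19 mice carry a transgene of mutant human tau, expressed from the mouse prion protein promoter, and serve as a model of tau pathology. PS19 Zbp1+/- mice carry the same transgene and are labelled as having lost 1 of the Zbp1 alleles, so both PS19 groups share the tau transgene. Each genotype was represented by 1 library, and the number of animals behind a library and their sex are not given in the sources used here. No difference below therefore has a replicate check: the intervals given are exact 95% intervals for counting error alone, and they compare libraries, not genotypes.

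ZBP1 is a cytosolic sensor that binds nucleic acid in the left-handed Z conformation. Once engaged, it recruits the kinase RIPK3 through a shared protein motif. RIPK3 then phosphorylates the pseudokinase MLKL, which breaches the plasma membrane in the lytic form of cell death called necroptosis. RIPK1 uses the same motif, and the protease caspase-8, held with the adaptor FADD and the inactive homologue cFLIP (encoded by Cflar), cleaves RIPK1 and RIPK3 and so restrains the pathway. ADAR1, the product of Adar, converts adenosine to inosine in double-stranded RNA; its long, interferon-inducible isoform also binds the Z form and limits the RNA available to ZBP1. Zbp1 itself is an interferon-stimulated gene, and microglia are the main myeloid cells of the hippocampus.

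The motif that ties the pathway together, the receptor-interacting protein homotypic interaction motif (RHIM), is shown first because it is what Zbp1 shares with both kinases. Its core of 4 residues (isoleucine or valine, then glutamine, then isoleucine, valine or leucine, then glycine) was searched for in the longest coding sequence of each gene in GENCODE M21 (GRCm38). It was found in 3 of the 8 genes and in 483 of 21549 genes with a coding sequence, or 2.24%, so that a match alone does not mark a working RHIM. Zbp1 held 2 cores, at residues 192 to 195 and 248 to 251 of 411. Ripk1 held 1 at residues 528 to 531 of 656, and Ripk3 held 1 at residues 448 to 451 of 486. The 60 coding bases around each core are given 5′ to 3′, with the codons of the core in capitals.
Zbp1, core at residue 192: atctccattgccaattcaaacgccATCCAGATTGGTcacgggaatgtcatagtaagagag
Zbp1, core at residue 248: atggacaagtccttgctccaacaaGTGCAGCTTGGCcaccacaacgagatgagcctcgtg
Ripk1: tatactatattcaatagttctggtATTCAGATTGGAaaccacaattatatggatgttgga
Ripk3: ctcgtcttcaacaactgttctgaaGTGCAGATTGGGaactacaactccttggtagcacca
Of the 12 core bases, 10 were the same between the Zbp1 core at residue 192 and Ripk1, and 10 between the Zbp1 core at residue 248 and Ripk3. Over all 60 bases, Ripk1 and Ripk3 shared 32, the most of any pair. No core was found in Adar, Mlkl, Casp8, Fadd or Cflar.

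Levels are given as FPKM, fragments normalised to library size and to gene length in kilobases, together with the whole reads behind them. In PS19, the FPKM order was Adar at 17.5, Cflar at 3.16, Casp8 at 2.28, Zbp1 at 1.49, Ripk1 at 1.03, Fadd at 0.771, Ripk3 at 0.480 and Mlkl at 0.176. Adar thus supplied 65.1% of the summed FPKM of the 8 genes in PS19, against 77.2% in WT and 87.9% in PS19 Zbp1+/-. Without Adar, the other 7 genes summed to an FPKM of 4.301 in the WT library, 9.387 in PS19 and 3.004 in PS19 Zbp1+/-. Ripk3 and Mlkl, the effectors of necroptosis, were the weakest of the set by reads over the 3 libraries, with 28 and 10. Outside PS19, Zbp1 was weaker than Ripk3, at an FPKM of 0.0821 against 0.177 in WT and 0 against 0.0551 in PS19 Zbp1+/-.

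**Figure D1:**
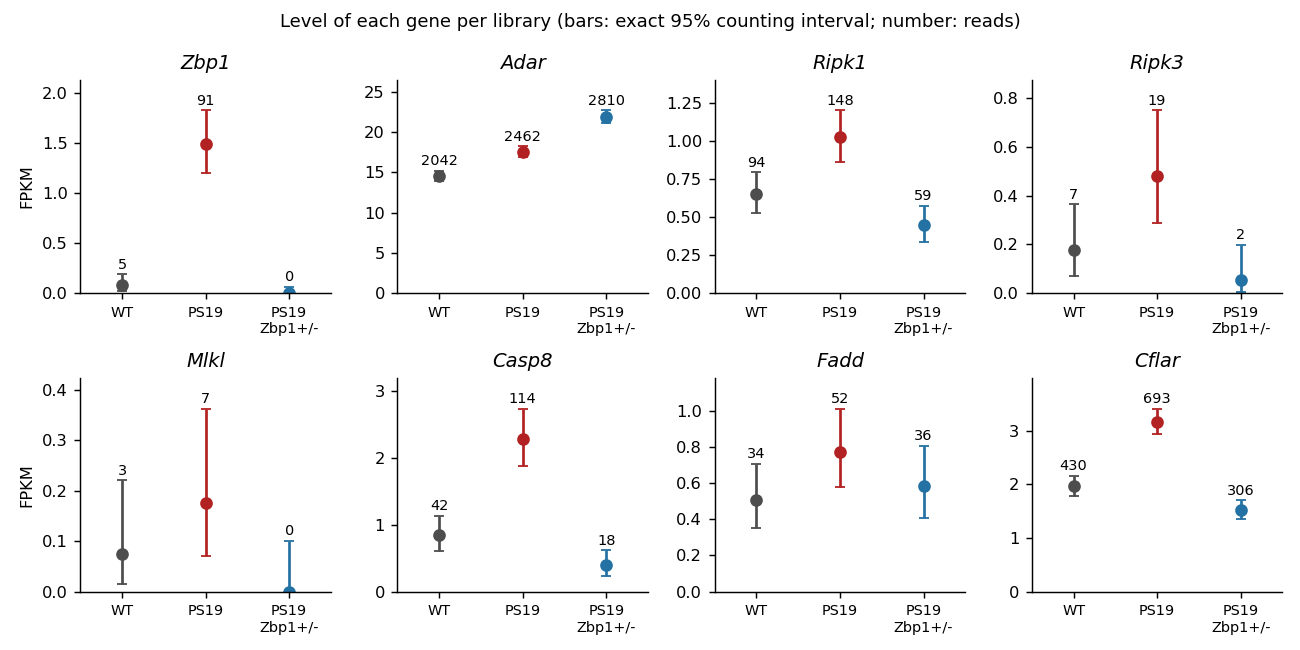
FPKM (y axis, from 0, a separate scale per gene) of the 8 genes in the WT, PS19 and PS19 Zbp1+/- libraries; points are single libraries, bars are exact 95% counting intervals and the number above each bar is its reads. PS19 holds the highest point for every gene apart from Adar, which is highest in PS19 Zbp1+/- at an FPKM of 21.9.

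Facts about the libraries as a whole touch every comparison of PS19 Zbp1+/-. Recovered reads totalled 16400328 to 17109734 per library. The WT and PS19 libraries held 11062 and 13350 reads of Xist, the X inactivation transcript, and no read of the Y-linked Ddx3y, whereas PS19 Zbp1+/- held 0 and 711, so sex and Zbp1 dosage cannot be told apart. The summed FPKM of 4 choroid plexus markers (Ttr, Folr1, Kl and Clic6) was 3095 in the WT library, 1887 in PS19 and 10.4 in PS19 Zbp1+/-. Of 357 weakly covered genes (8 to 12 reads in each of the other libraries), 57 (16.0%, exact interval 12.3 to 20.2%) had none in PS19 Zbp1+/-, against 2.14% for WT and 0.410% for PS19 counted likewise. The counting intervals of weak genes in that library do not cover this loss. The markers of the labelled tissue were present: Prox1, Wfs1, Zbtb20 and Neurod6, expressed in hippocampal neurons, summed to an FPKM of 96.3 to 123.4 in the 3 libraries. Singly they were not level. For PS19 Zbp1+/- over PS19, the ratio of reads per library size was 0.464 for Zbtb20 and 0.547 for Prox1. It was 1.14 for Neurod6 and 1.03 for Wfs1.

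Zbp1 (ENSMUSG00000027514; GRCm38 chromosome 2, 173206612 to 173218923, minus strand) was the gene of the set that differed most between libraries. It had 5 reads in the WT library, 91 in PS19 and 0 in PS19 Zbp1+/-, or FPKM values of 0.0821, 1.49 and 0. Only PS19 stood apart: its counting interval, an FPKM of 1.20 to 1.83, lay above those of both other libraries, which overlapped each other (0.0267 to 0.192 in WT and 0 to 0.0660 in PS19 Zbp1+/-). The read ratio of PS19 over WT, per library size, was 18.2 (7.50 to 57.3), and of 15630 protein-coding genes with at least 10 reads over the 3 libraries 0.0768% had a larger one. Zbp1 reached the 10 reads only through PS19, where it was highest, so this rank is a description and carries no weight as support. For PS19 Zbp1+/- over PS19 the ratio of Zbp1 was 0, with a counting interval that reached 0.0452; with 3 reads in place of the 0, the library would stand 27.8-fold below PS19.

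The Zbp1 count is also the check of the genotype label. A single allele expressed as in PS19 would give an FPKM of 0.746, or 41.7 reads, above 0.0660, the upper end of the counting interval in PS19 Zbp1+/-. A single allele expressed as in WT would give 2.29 reads, which this depth does not tell from 0. The level alone does not give the number of alleles, and the library is named by its label throughout. Of 11841 protein-coding genes with at least 91 reads in PS19, 12, or 0.101%, had no read in PS19 Zbp1+/-: Zbp1, Cst7, H2-Aa, H2-Ab1, Ifi204, Ifi207, Krt18, Mx1, Rbm47, Shox2, Slc4a5 and Tmem72. WT lacked reads for 1 of the 11841.

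The genes most like Zbp1 over the 3 libraries were found from each gene's shares of its summed FPKM, by the Euclidean distance to the shares of Zbp1 (5.22% in the WT library, 94.8% in PS19 and 0% in PS19 Zbp1+/-). The 5 nearest of 13961 protein-coding genes with at least 50 reads were Shox2, Gbp6, Cst7, Tnfsf8 and Ifi204, at distances of 0.00420 to 0.0131. Gbp6 and Ifi204 are interferon-inducible genes, Cst7 encodes a cysteine protease inhibitor of activated microglia, Tnfsf8 a ligand of the tumour necrosis factor family and Shox2 a homeobox factor. Gbp6 had 4, 68 and 0 reads in the WT, PS19 and PS19 Zbp1+/- libraries, Cst7 had 12, 248 and 0, and Shox2 had 12, 206 and 0. With 3 points per gene, such likeness is a description only.

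Adar (ENSMUSG00000027951; chromosome 3, 89715022 to 89753446, plus strand) was the most abundant of the 8 genes and the only one not highest in PS19. Its reads were 2042 in the WT library, 2462 in PS19 and 2810 in PS19 Zbp1+/-, and its FPKM was 14.6, 17.5 and 21.9. No 2 of the 3 counting intervals overlapped. The read ratio of PS19 over WT was 1.20 (1.13 to 1.28) and that of PS19 Zbp1+/- over WT was 0.59 on the log2 scale, with an interval of 1.42 to 1.59 as a ratio. That of PS19 Zbp1+/- over PS19, 1.25 (1.18 to 1.32), depended on the scaling of the libraries: it was 1.09 (1.04 to 1.16) per total reads and 1.02 (0.968 to 1.08) as TPM, where FPKM values add up to an equal total in all libraries. Adar was thus above WT in both PS19 libraries under all 3 scalings, while its order between the PS19 libraries was not settled. The table has 1 row for Adar, so that the interferon-inducible isoform and the constitutive one were not separated. Chrnb2, a nicotinic receptor subunit gene that overlaps Adar on the opposite strand, had 1040, 1211 and 1369 reads, the same order of libraries as Adar. The strand setting is not given, and whether reads of 1 gene were counted for the other was not tested.

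Because library scaling cancels within a library, Adar was also set against other genes there. The FPKM of Zbp1 was 0.563% of that of Adar in WT (0.183 to 1.32%), 8.50% in PS19 (6.82 to 10.5%) and 0% in PS19 Zbp1+/- (up to 0.302%). Adarb1, which encodes the editing enzyme ADAR2, stood at 0.986 times Adar in WT (0.931 to 1.04), 1.42 times in PS19 (1.35 to 1.49) and 0.759 times in PS19 Zbp1+/- (0.721 to 0.800). PS19 was therefore the library with the most Zbp1 and the most Adarb1 per Adar, and none of the 3 Adarb1 intervals overlapped. The genes nearest to Adar in their shares were Setd5, a chromatin-associated SET-domain gene, 2610507B11Rik and Bicral, at distances of 0.000804 to 0.00207.

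The kinases Ripk1 and Ripk3 were both highest in PS19 and lowest in PS19 Zbp1+/-. Ripk1 (ENSMUSG00000021408; chromosome 13, 34002363 to 34037147, plus strand) had 94 reads in the WT library, 148 in PS19 and 59 in PS19 Zbp1+/-, at FPKM values of 0.653, 1.03 and 0.447. The counting interval of PS19 (0.867 to 1.21) lay above the others, and those of WT (0.528 to 0.799) and PS19 Zbp1+/- (0.340 to 0.576) overlapped. Its read ratio was 1.57 (1.21 to 2.06) for PS19 over WT, 0.435 (0.316 to 0.593) for PS19 Zbp1+/- over PS19 and 0.684 (0.486 to 0.958) for PS19 Zbp1+/- over WT. Ripk3 (ENSMUSG00000022221; chromosome 14, 55784995 to 55788865, minus strand) had 7, 19 and 2 reads, at FPKM values of 0.177, 0.480 and 0.0551. These few reads separated PS19 from WT by a ratio of 2.71 whose interval, 1.09 to 7.63, barely left 1. PS19 Zbp1+/- over PS19 was 0.115 (0.0130 to 0.477), and PS19 Zbp1+/- over WT, at 0.311 (0.0316 to 1.64), was not detectable as a difference at this depth. The FPKM of Ripk3 per Ripk1 was 0.271 in the WT library, 0.467 in PS19 and 0.123 in PS19 Zbp1+/-, with intervals that overlapped between all 3 libraries. On the opposite strand Serpinb6a, a serine protease inhibitor gene, overlaps Ripk1 and had 588, 455 and 526 reads, so its order of libraries was another one. The genes with shares nearest to those of Ripk1 were Ttc41, Ssfa2 and S100b, the last of which encodes an astrocyte calcium-binding protein, at distances of 0.00111 to 0.00532.

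Mlkl (ENSMUSG00000012519; chromosome 8, 111311797 to 111338177, minus strand), the executioner, was near the limit of detection. It had 3 reads in the WT library, 7 in PS19 and 0 in PS19 Zbp1+/-, for FPKM values of 0.0755, 0.176 and 0. Its ratio for PS19 over WT was 2.33 (0.532 to 14.0), so no difference was detectable. Against PS19, the library labelled PS19 Zbp1+/- had a ratio of 0, with a counting interval that reached 0.758. That interval does not cover the loss of weak genes in PS19 Zbp1+/-, where 16.0% of genes with 8 to 12 reads in each other library had none. No ratio to WT is given, since both libraries were at or under the floor.

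Casp8 (ENSMUSG00000026029; chromosome 1, 58795374 to 58847503, plus strand), the protease that restrains necroptosis, showed the largest ratios among the 5 members with more than 100 reads over the 3 libraries. It had 42 reads in the WT library, 114 in PS19 and 18 in PS19 Zbp1+/-, and its FPKM was 0.841, 2.28 and 0.393. PS19 was above both other libraries without overlap of the intervals, and WT and PS19 Zbp1+/- overlapped only at their edges (0.606 to 1.14 and 0.233 to 0.621). The ratio was 2.71 (1.89 to 3.96) for PS19 over WT, with 4.25% of the 15630 genes above it. It was 0.172 (0.0987 to 0.285) for PS19 Zbp1+/- over PS19, with 2.97% of genes below it once reads under 3 were set to 3, and 0.467 (0.253 to 0.829) for PS19 Zbp1+/- over WT. Nearest to Casp8 in its shares were Btk, a kinase of B cells and myeloid cells, Ahnak, a giant scaffold protein gene, and Herc6, an interferon-inducible ubiquitin ligase gene, at distances of 0.0126 to 0.0133.

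Cflar (ENSMUSG00000026031; chromosome 1, 58711508 to 58758884, plus strand) is the neighbour of Casp8, 36490 bases away, and encodes its catalytically inactive partner. It had 430 reads in the WT library, 693 in PS19 and 306 in PS19 Zbp1+/-, at FPKM values of 1.97, 3.16 and 1.53. None of the 3 counting intervals overlapped. The ratio was 1.61 (1.42 to 1.82) for PS19 over WT, 0.482 (0.420 to 0.553) for PS19 Zbp1+/- over PS19 and 0.776 (0.668 to 0.900) for PS19 Zbp1+/- over WT. The balance of the partners also differed: the FPKM of Cflar per Casp8 was 2.34 in WT (1.70 to 3.29), 1.39 in PS19 (1.14 to 1.71) and 3.88 in PS19 Zbp1+/- (2.42 to 6.64). PS19 held the least Cflar per Casp8, and its interval met that of WT at 1.70 to 1.71. By contrast Cflar per Ripk1 lay at 3.01, 3.08 and 3.42, with intervals that overlapped throughout (2.41 to 3.81, 2.58 to 3.71 and 2.58 to 4.59). Nearest to Cflar in their shares were Cracr2b, Glb1l and Resf1, at distances of 0.00410 to 0.00497.

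Fadd (ENSMUSG00000031077; chromosome 7, 144577318 to 144582463, minus strand), the adaptor that carries caspase-8 into the complex, varied least among the genes of the pathway other than Adar. It had 34 reads in the WT library, 52 in PS19 and 36 in PS19 Zbp1+/-, with FPKM values of 0.505, 0.771 and 0.583. The 3 counting intervals overlapped. Its ratios were 1.53 (0.972 to 2.43) for PS19 over WT, 0.756 (0.480 to 1.18) for PS19 Zbp1+/- over PS19 and 1.15 (0.702 to 1.90) for PS19 Zbp1+/- over WT. All 3 intervals held 1, although TPM scaling moved the first to 1.67 (1.06 to 2.65) and the second to 0.620 (0.394 to 0.967). Fadd per Casp8, free of that scaling, was 33.8% in PS19 (23.9 to 47.3%) and 148.2% in PS19 Zbp1+/- (82.0 to 277.3%), intervals that did not overlap, with WT between them and overlapping both (37.0 to 96.6%). Faddos, annotated antisense to Fadd, had no read in any library.

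**Figure D2:**
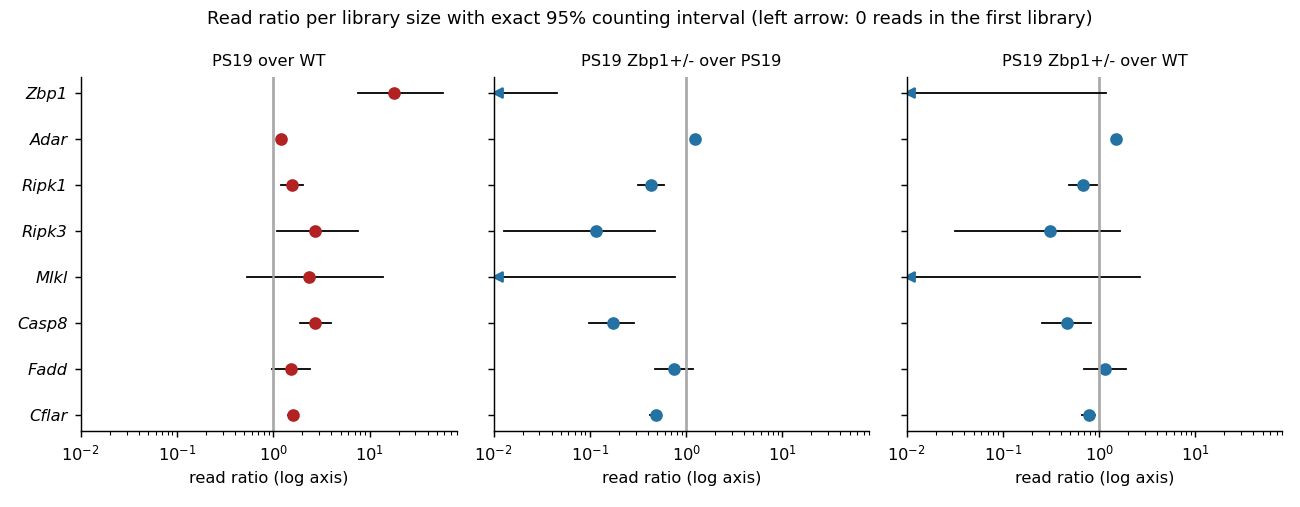
Read ratio per library size (x axis, logarithmic) of each gene (y axis) in the 3 comparisons, with exact 95% counting intervals as lines; an arrow at the left edge marks 0 reads in the first library named, and the grey line marks a ratio of 1. Adar alone lies above 1 for PS19 Zbp1+/- over PS19, at 1.25, and Zbp1 lies furthest from 1 for PS19 over WT, at 18.2.

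Across the 24 ratios of the 8 genes, PS19 over WT was above 1 for all 8 members, and the counting interval excluded 1 for 6 of them, the exceptions being Mlkl and Fadd. For PS19 Zbp1+/- over PS19 the interval lay below 1 for 6 members, above 1 for Adar and across 1 for Fadd. For PS19 Zbp1+/- over WT it lay below 1 for Ripk1, Casp8 and Cflar, above 1 for Adar and across 1 for the other 4. The share of all genes whose interval excludes 1 was not computed. With many reads a small ratio already does so, as for Adar at 1.20 for PS19 over WT. These counts describe the members and do not set them apart from other genes. The comparisons share libraries, so a high PS19 value raises the first ratio and lowers the second by construction, and the 2 are given side by side without a measure of their relation.

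Set against all genes, several members were past 2-fold, most of them weakly expressed. With reads under 3 set to 3, 4 of the 8 members (Zbp1, Casp8, Ripk3 and Mlkl) were at least 2-fold higher in PS19 than in WT, where 7.19% of the 15630 genes were, and 0 were at least 2-fold lower, where 2.58% were. Their median log2 ratio was 0.95, against -0.0029 over all genes. Zbp1, Ripk3 and Mlkl reached the 10 reads only through PS19, where they were highest, so these counts are a description and carry no weight as support. In PS19 Zbp1+/- against PS19, 6 of 8 were at least 2-fold lower (Zbp1, Casp8, Ripk3, Ripk1, Mlkl and Cflar), against a background of 14.5%, and 0 were higher, against 4.94%. Here too Zbp1, Ripk3 and Mlkl passed the filter only through PS19, which favours a lower value in the other library. Mlkl was called at 0 reads, set to 3, against 7. This count is likewise a description and carries no weight as support. The members' median was -1.15 and that of all genes 0.0011. Against WT, PS19 Zbp1+/- was at least 2-fold lower for Casp8 and for Ripk3, whose interval held 1 (2 of 8, background 9.08%), and higher for 0 (background 4.49%).

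On the log2(FPKM + 1) scale, which shrinks the differences of weak genes, fewer members could be set against 2-fold. A level of 1 FPKM or more in 1 of both libraries was reached by 5 members for PS19 over WT, 5 for PS19 Zbp1+/- over PS19 and 2 for PS19 Zbp1+/- over WT; Ripk3, Mlkl and Fadd never reached it. Zbp1 was the 1 member called higher in PS19 than in WT, by 1.20 log2 units, where 2.2% of 12703 genes were and 0.291% were lower. Zbp1 at -1.32 and Casp8 at -1.24 were called lower in PS19 Zbp1+/- against PS19, where 5.16% of 12772 genes were and 2% were higher. Zbp1 and Casp8 reached the level of 1 FPKM only through PS19, where they were highest, so these calls too are a description. No member was called between PS19 Zbp1+/- and WT, where 1.07% of 12436 genes were higher and 2.28% lower.

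**Figure D3:**
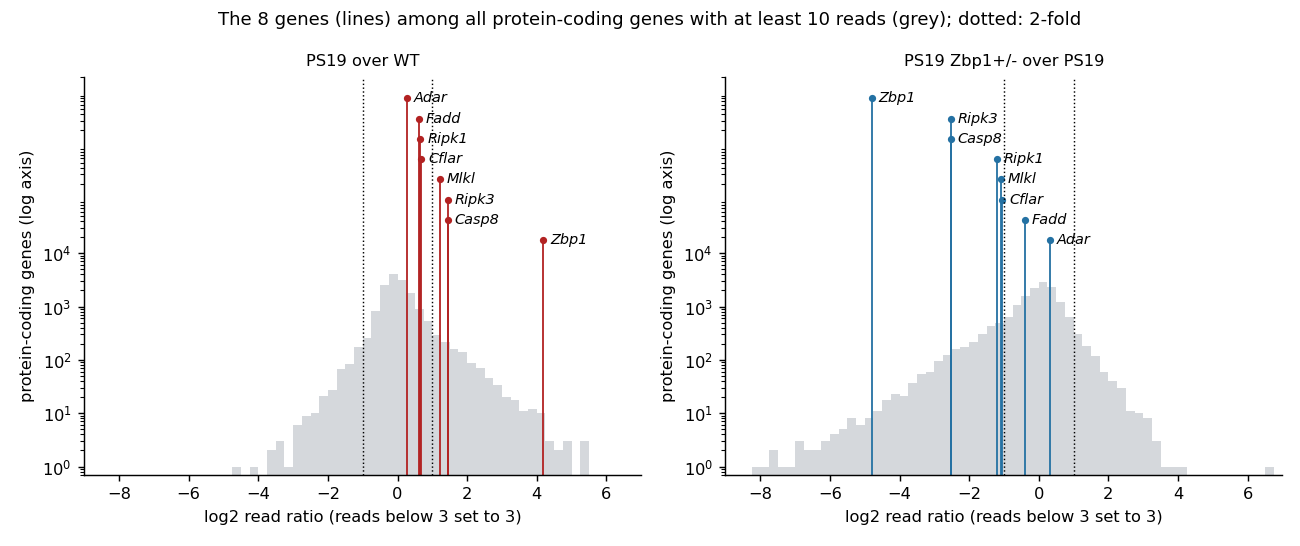
Number of protein-coding genes with at least 10 reads (grey, y axis logarithmic) by log2 read ratio (x axis, reads under 3 set to 3) for PS19 over WT and for PS19 Zbp1+/- over PS19; each line marks 1 of the 8 genes, its height only separates the names, and dotted lines mark 2-fold. Zbp1, which reached the 10 reads only through PS19, sits in the outer tail of both panels. Adar sits close to 0 in both, at log2 ratios of 0.27 and 0.32.

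Markers of several cell types differed between the same libraries. The 8 microglial markers (among them P2ry12, Tmem119, Cx3cr1 and Csf1r) summed to an FPKM of 125.6 in the WT library, 398.9 in PS19 and 130.3 in PS19 Zbp1+/-, which gave 3.18 for PS19 over WT and 0.327 for PS19 Zbp1+/- over PS19. C1qa was the largest part of the sum in PS19, at an FPKM of 204.7. Of these markers, 6 were at least 2-fold higher in PS19 than in WT, whereas P2ry12 had a ratio of 0.904 and Tmem119 one of 1.13. The median ratio was 2.89 for PS19 over WT and 0.427 for PS19 Zbp1+/- over PS19, where P2ry12 was at 0.859 and Tmem119 at 0.822. For PS19 Zbp1+/- over WT the sums were close, but Cx3cr1 was at 2.64 (2.31 to 3.02). The 4 astrocyte markers were 4.90-fold and the 4 oligodendrocyte markers 1.76-fold their WT sum in PS19, and 0.220 and 0.371 of their PS19 sum in PS19 Zbp1+/-. Gfap carried the astrocyte sum, at a ratio of 7.81 for PS19 over WT, beside 2.80 for Aqp4, 1.46 for Slc1a3 and 1.34 for Aldh1l1; 2 of the 4 were past 2-fold, and the median ratio was 2.02 for PS19 over WT and 0.452 for PS19 Zbp1+/- over PS19. The 5 general neuronal markers gave 0.906 and 1.34. The 5 T and NK cell markers summed to an FPKM of 0.427, 1.40 and 0.266, with Cd3e at 0 in WT and Cd3e, Cd3g, Cd8a and Nkg7 at 0 in PS19 Zbp1+/-. Cd4, the remaining marker, went the other way, with 5, 10 and 17 reads, and made up the whole sum in PS19 Zbp1+/-. Its ratio there was 1.86 (0.803 to 4.54) over PS19 and 3.71 (1.31 to 12.8) over WT. The 4 neutrophil and monocyte markers summed to 1.40, 4.33 and 0.363, with S100a8, Ly6c2 and Ccr2 at 0 in PS19 Zbp1+/-. The part of these cell types, of sex, of the dissection and of weak-gene losses in the levels of the 8 genes was not tested. In bulk RNA, fewer cells of a type and less RNA per cell cannot be told apart.

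**Figure D4:**
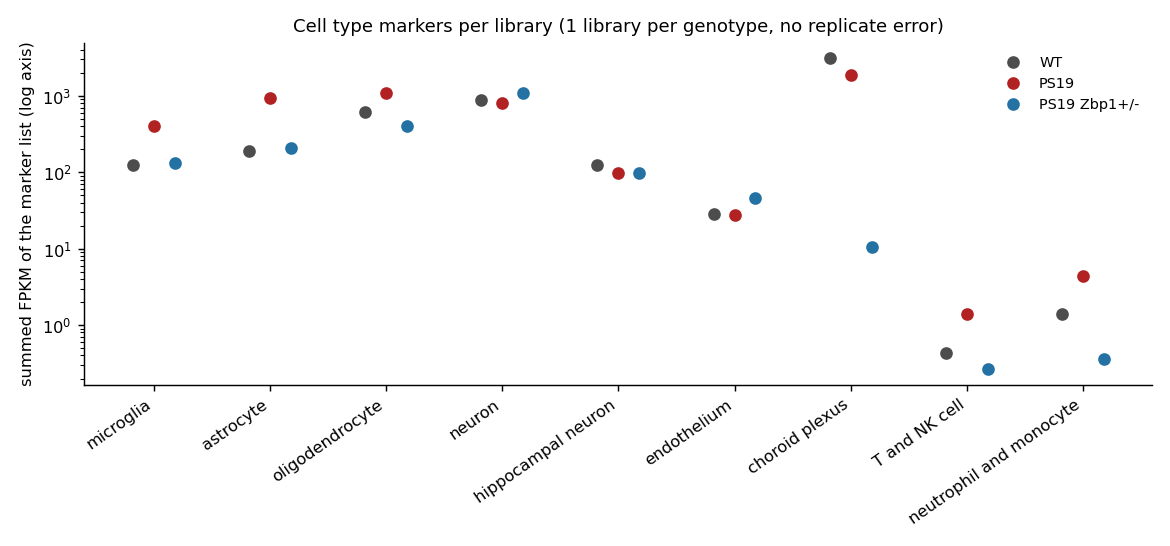
Summed FPKM (y axis, logarithmic) of 9 lists of cell type markers in the 3 libraries, 1 point per library. PS19 is highest for the microglial, astrocyte and oligodendrocyte lists, and the choroid plexus list is at 10.4 in PS19 Zbp1+/- against 3095 in WT.

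Of 65 further genes of the pathway in 6 lists, 64 had at least 10 reads. Of these, 14 were at least 2-fold higher in PS19 than in WT and 0 lower (21.9%, against 7.19% of all genes), and 17 lay at least 2-fold lower in PS19 Zbp1+/- when set against PS19 and 0 higher (26.6%, against 14.5%). Against WT, PS19 Zbp1+/- was lower for 5 and higher for 0 (7.81%, against 9.08% lower over all genes). The lists were chosen with earlier results of these data known, and their counts are descriptive. PS19 enters the first and the second comparison with opposite sign.

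The interferon route to Zbp1 came first in order of action. All 10 genes of that list had a ratio above 1 for PS19 over WT, with a median log2 ratio of 0.48, against -0.0029 over all genes. Past 2-fold were 2, against 7.19% of all genes. Irf7, the factor that amplifies interferon transcription, had 46, 236 and 31 reads in the WT, PS19 and PS19 Zbp1+/- libraries, with ratios of 5.12 (3.72 to 7.18) and 0.143 (0.0953 to 0.209). Irf9, the DNA-binding subunit of the complex that interferon receptors activate, stayed just under 2-fold in PS19 at 1.93 (1.67 to 2.24), past it at 2.11 under TPM scaling, and was at 0.344 (0.288 to 0.409) in PS19 Zbp1+/- over PS19. The receptor chains Ifnar1 and Ifnar2 and the kinases Jak1 and Tyk2 were within 2-fold in all 3 comparisons. In PS19 Zbp1+/- over PS19, 4 genes of the list were past 2-fold lower, against 14.5% of all genes, and Irf1 joined them under TPM scaling, at 0.473. Irf3 was among the 4; it had 452, 495 and 185 reads and was also lower than in WT, at 0.446 (0.374 to 0.531).

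Among genes that edit or sense double-stranded RNA, 3 of 12 were at least 2-fold higher in PS19 than in WT, against 7.19% of all genes. The same 3 lay at least 2-fold lower in PS19 Zbp1+/- when set against PS19, where 14.5% of all genes did. Eif2ak2, the kinase PKR that halts translation on double-stranded RNA, had 87, 328 and 109 reads in the WT, PS19 and PS19 Zbp1+/- libraries, with a PS19 over WT ratio of 3.76 (2.96 to 4.82). The helicase sensors Ddx58 (RIG-I) and Ifih1 (MDA5) had 104, 392 and 85 reads and 79, 261 and 32 reads. Their PS19 over WT ratios were 3.76 (3.02 to 4.72) and 3.30 (2.55 to 4.30). Ifih1 was also lower in PS19 Zbp1+/- than in WT, at 0.442 (0.283 to 0.674). The RNA-binding cofactors Dhx9, Ilf2, Stau1 and Zfr, expressed in most cells, were within 2-fold in every comparison.

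Inputs from surface receptors were unequal. The list of death receptors and Toll-like receptors held 6 genes, of which 3 were at least 2-fold higher in PS19 than in WT, against 7.19% of all genes. Tlr4, the endotoxin receptor, had 17, 85 and 15 reads and a ratio of 4.99 (2.94 to 8.96). Fas, a death receptor that binds FADD, had 22, 64 and 10 reads and a ratio of 2.90 (1.76 to 4.95), and Tlr3, the endosomal sensor of double-stranded RNA, had 189, 422 and 165 and a ratio of 2.23 (1.87 to 2.66). These 3 and Tnfrsf10b lay at least 2-fold lower in PS19 Zbp1+/- when set against PS19, where 14.5% of all genes did. Tnfrsf10b, the TRAIL receptor, had 16, 14 and 4 reads and was also lower than in WT, at 0.273 (0.0663 to 0.845), as was Fas, at 0.496 (0.209 to 1.09), whose interval held 1. Tnfrsf21 and the adaptor Ticam1 stayed within 2-fold.

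Next was the complex that assembles on tumour necrosis factor receptor 1 and sets the ubiquitin state of RIPK1. Its median log2 ratio was 0.11 for PS19 over WT and -0.13 for PS19 Zbp1+/- over PS19. Of its 17 genes with enough reads, 2 were at least 2-fold higher in PS19 than in WT, against 7.19% of all genes. The same 2 lay at least 2-fold lower in PS19 Zbp1+/- when set against PS19, where 14.5% of all genes did. These counts do not set the list apart from all genes. The 2 were Birc3, which encodes the ubiquitin ligase cIAP2, and the receptor Tnfrsf1a. Birc3 had 27, 79 and 17 reads and read ratios of 2.92 (1.87 to 4.70) and 0.235 (0.130 to 0.401). Tnfrsf1a had 226, 588 and 232 reads and read ratios of 2.60 (2.22 to 3.04) and 0.431 (0.369 to 0.503). The linear ubiquitin ligase subunits Rnf31, Rbck1 and Sharpin and the deubiquitinases Cyld, Otulin and Tnfaip3 were within 2-fold in all 3 comparisons. The largest ratio against WT in PS19 Zbp1+/- was that of Tnfaip3, 1.64 (1.30 to 2.08). Tnf itself had 0, 5 and 0 reads and was not tested.

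Downstream of the necrosome, the partners of Mlkl and the membrane repair genes did not reach 2-fold in any comparison, 0 of 10 each time; under TPM scaling Trpm7 alone passed it, at 0.498 for PS19 Zbp1+/- over PS19. Over all genes, 7.19% were at least 2-fold higher for PS19 over WT and 14.5% lower for PS19 Zbp1+/- over PS19. At such shares, 0 of 10 does not set the list apart. The median log2 ratio of the Mlkl partner list was -0.27 for PS19 over WT and 0.29 for PS19 Zbp1+/- over PS19. The gene furthest from 1 was Flot1, a membrane scaffold, for PS19 over WT, at 0.754 (0.706 to 0.805), Trpm7, an ion channel, for PS19 Zbp1+/- over PS19, at 0.607 (0.553 to 0.666), and Chmp2a, a subunit of the membrane-remodelling ESCRT-III complex, for PS19 Zbp1+/- over WT, at 0.672 (0.615 to 0.735). Among 9 caspases and pore formers, 4 were at least 2-fold higher in PS19 than in WT, against the 7.19% of all genes. Pycard, the inflammasome adaptor, had 24, 108 and 16 reads and a ratio of 4.49 (2.87 to 7.31), and Nlrp3, an inflammasome sensor, had 28, 77 and 3 reads and a ratio of 2.74 (1.76 to 4.39). Gsdmd, the pore former of pyroptosis, and Aim2, a DNA sensor, had ratios of 2.20 (1.60 to 3.06) and 2.15 (1.57 to 2.97). The same 4 lay at least 2-fold lower in PS19 Zbp1+/- when set against PS19, where 14.5% of all genes did. Nlrp3 led them at 0.0426 (0.00859 to 0.129) and was also lower than in WT, at 0.117 (0.0227 to 0.378). Casp6 and Gsdme were within 2-fold in all 3 comparisons, apart from Casp6 under TPM scaling, at 0.466 for PS19 Zbp1+/- over PS19.

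**Figure D5:**
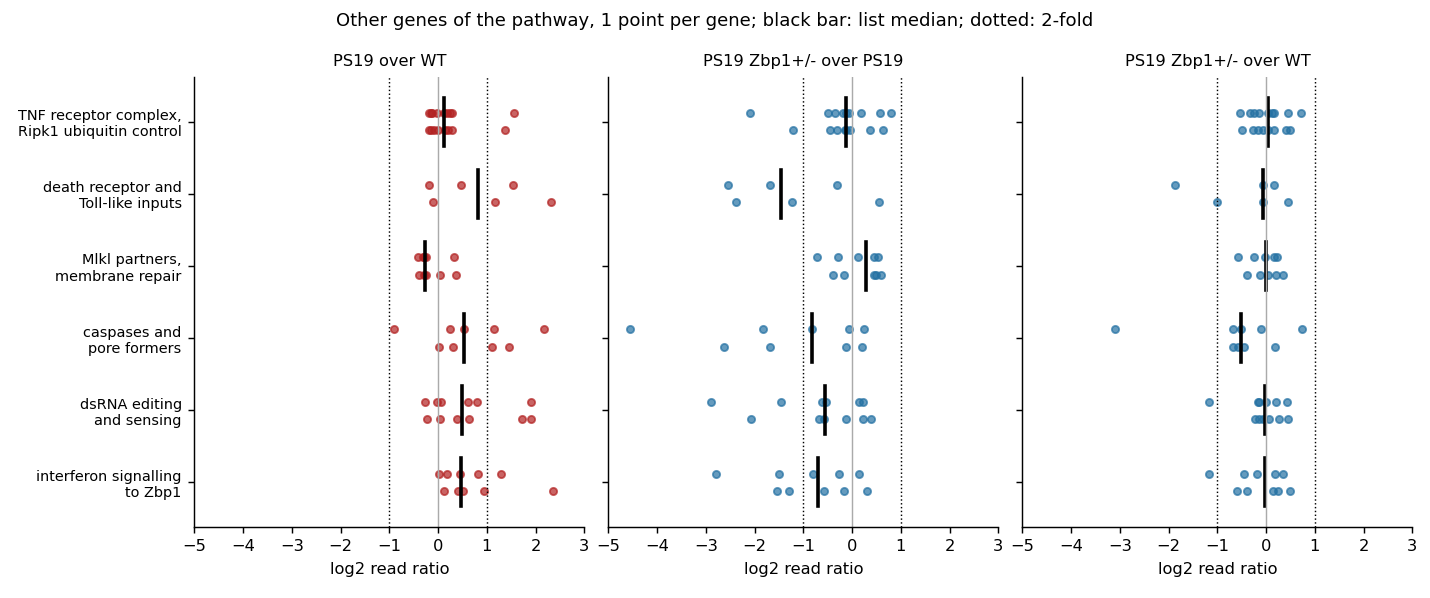
Log2 read ratio (x axis) of 64 genes in 6 pathway lists (y axis), 1 point per gene, in the 3 comparisons; black bars are list medians and dotted lines mark 2-fold. For PS19 over WT the points past 2-fold lie to the right in 5 lists, and the Mlkl partner list has none.

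Because several members differed together, the sequence around their annotated start sites was read from RefSeq promoter windows (GRCm38.p6, 250 bases before to 50 after the start). Windows were matched by symbol for 7 of the 8 members, 10 windows in all; Zbp1 had no entry. Motifs of interferon-activated factors searched for on both strands were the core of the interferon-stimulated response element (GAAA, any 2 bases and GAAA again, or TTTC, any 2 bases and TTTC on the other strand) and the core of the gamma-activated site of interferon signalling (TTCNNNGAA). The first was present in 3.44% and the second in 8.30% of 32851 windows. Among the members, 3 windows held a match. The second window of Ripk1 (chr13:34002624-34002923, plus strand) held the response element core at -5, counted from the start site as +1, and the gamma-activated core at -108 and -11, the last overlapping the response element. The window of Cflar (chr1:58711241-58711540, plus strand) held the response element core at 7, and the third of the 3 Adar windows held a gamma-activated core at 23. The windows of Casp8 (chr1:58802252-58802551, plus strand), Ripk3, Mlkl and Fadd held neither. That of Casp8 lies within the gene span given above, which starts at 58795374, so the sequence around that start was not read. The windows of Ripk1 and Cflar are shown with the motif letters in capitals, and that of Casp8, the member with the largest ratio among these 3, beside them.
Ripk1, second window: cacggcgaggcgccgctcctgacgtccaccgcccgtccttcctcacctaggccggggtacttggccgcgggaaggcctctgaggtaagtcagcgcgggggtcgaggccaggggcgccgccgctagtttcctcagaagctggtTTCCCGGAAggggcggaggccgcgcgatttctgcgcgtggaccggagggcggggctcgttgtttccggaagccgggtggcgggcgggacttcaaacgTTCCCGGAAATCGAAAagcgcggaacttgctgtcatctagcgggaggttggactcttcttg
Cflar: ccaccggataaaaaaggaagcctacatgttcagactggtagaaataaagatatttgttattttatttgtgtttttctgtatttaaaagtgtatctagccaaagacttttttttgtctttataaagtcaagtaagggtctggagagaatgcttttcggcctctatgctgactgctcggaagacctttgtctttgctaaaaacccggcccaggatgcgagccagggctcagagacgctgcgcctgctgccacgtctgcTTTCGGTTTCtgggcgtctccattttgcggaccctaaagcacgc
Casp8: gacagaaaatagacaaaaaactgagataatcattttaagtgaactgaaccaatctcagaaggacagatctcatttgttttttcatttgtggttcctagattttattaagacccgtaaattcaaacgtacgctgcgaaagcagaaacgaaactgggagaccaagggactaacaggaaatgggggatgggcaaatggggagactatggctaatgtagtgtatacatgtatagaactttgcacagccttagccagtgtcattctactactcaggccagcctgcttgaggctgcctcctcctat
A match is a stretch of letters and not a bound site, and its absence says only that these letters are not in the window.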

How the data were processed

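RNA of the hippocampus was sequenced in 3 libraries, 1 per genotype. The authors deposited 1 table of FPKM values with gene names, positions, lengths and biotypes, read as FPKM from its name and values. Per the submitters' processing notes, Trim Galore 0.6.5, STAR 2.5.3a and featureCounts 2.0.4 were used and the build was mm39, whereas 98.3% of 54495 gene IDs had the positions of GENCODE M21 (GRCm38), among them all 8 members, so positions are given as GRCm38. Strand setting and pooling of animals are not given in the sources used here; without strand, overlapping genes cannot be told apart.

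Each FPKM times gene length was a whole multiple of 1 step (within 0.01 in 100% of values), which returned whole reads. The steps imply library sizes of 17253479, 17287957 and 15826984 reads for WT, PS19 and PS19 Zbp1+/-, which equal median-of-ratios size factors times the geometric mean of the totals. Ratios used these sizes, with Clopper-Pearson 95% intervals. In counts of genes past 2-fold, reads under 3 were set to a floor of 3; a library with 0 reads is given with the upper end of its interval, and one with 1 to 3 reads is given with its interval. With 1 library per group no test was possible. Counting intervals are too narrow for molecules, as reads carried no molecular identifiers.

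Members and lists were chosen with earlier results of these data known. Named were all members, overlapping genes, list genes past 2-fold (or the furthest from 1 where none was), and the genes of nearest FPKM shares; other list genes are named to say that they stayed within 2-fold, and genes in counts after their values were seen. Some genes of the lists are counted but not reported here by name. Alternatives were other scalings, pseudocounts, filters and thresholds. The procedure was tested on simulated counts for PS19 over WT that held counting error alone, with changes planted only in well-covered genes. It did not cover the spread between animals, changes in weak genes or the PS19 Zbp1+/- library. Computation used scipy 1.17.1, numpy 2.4.6 and pandas 2.3.3 under Python 3.11.15; matplotlib 3.10.9 drew the figures.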

Additional observations from a re-analysis of the deposited data

How the results depend on the processing

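With 1 library per genotype no replicate could be left out and no paired analysis was possible because each genotype had 1 library. Of 115 alternative values of single members, 99 stayed within the counting interval, 16 left it and none changed direction. Total-read and TPM scaling moved the median log2 ratio of all genes by 0.033 and 0.13 for PS19 over WT, by -0.19 and -0.29 for PS19 Zbp1+/- over PS19 and by -0.16 and -0.16 for PS19 Zbp1+/- over WT. The members past 2-fold did not change in number by over 1.5 times under any scaling. On log2(FPKM + 1), which shrinks weak genes, they were 1 higher for PS19 over WT, 2 lower for PS19 Zbp1+/- over PS19 and 0 lower for PS19 Zbp1+/- over WT, and on log2(FPKM + 0.1) the last was again 0.

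For all protein-coding genes on log2(FPKM + 1), 280 were higher and 37 lower for PS19 over WT, 255 and 659 for PS19 Zbp1+/- over PS19, and 133 and 283 for PS19 Zbp1+/- over WT. In the same order, a pseudocount of 0.1 gave 541 and 101, 430 and 1184, and 290 and 543. A mean FPKM of at least 5 gave 82 and 20, then 234 lower, then 81 and 103. Genes of every biotype gave 514 and 176, 528 and 1041, and 422 and 588. A 1.5-fold threshold gave 806 and 344, 1197 and 1544, and 834 and 886, and a 4-fold one 37 and 2, 10 and 104, and 7 and 53. Read ratios gave 1124 and 403, 772 and 2261, and 702 and 1419. Scaling by total reads left 147 higher for PS19 Zbp1+/- over PS19 and 78 over WT; TPM left 118 higher with 1009 lower, and 76 higher.

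Of the list medians, the death receptor and Toll-like list for PS19 Zbp1+/- over PS19 was -0.45 on log2(FPKM + 1). For PS19 Zbp1+/- over WT, the tumour necrosis factor receptor list turned from 0.037 to -0.12 under both scalings, the Mlkl partner list from 0.0044 to -0.15 under both (-0.151 and -0.153), and the interferon list from -0.025 to 0.0095 on log2(FPKM + 1). Among 72 list counts under other scalings, 71 stayed within 1.5 times and 1 did not: Trpm7, of the Mlkl partners, passed 2-fold under TPM for PS19 Zbp1+/- over PS19. On log2(FPKM + 1), 10 list counts moved by more: for PS19 over WT, higher genes went from 3 to 0 for death receptor and Toll-like genes, from 4 to 0 for caspases and pore formers, and from 2 to 1 for the tumour necrosis factor receptor and interferon lists; for PS19 Zbp1+/- over PS19, lower genes went from 4 to 1 for death receptor and Toll-like genes and from 2 to 1 for the tumour necrosis factor receptor list; for PS19 Zbp1+/- over WT, the 5 lower genes of 4 lists went to 0. Depth limits Mlkl, Ripk3 and Zbp1 outside PS19 most.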

Other observations

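The inflammasome genes of the pathway did not all differ the same way. Casp1, the protease that inflammasomes activate, had 47 reads in the WT library, 25 in PS19 and 27 in PS19 Zbp1+/-, a PS19 over WT ratio of 0.531 (0.313 to 0.880), while Pycard, Nlrp3, Aim2 and Gsdmd, which act with it, were at least 2-fold higher in PS19. Casp1 was singled out after its values were seen.

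Irf3, an interferon regulatory factor that is present before stimulation, was not higher in PS19 than in WT beyond counting error per library size, unlike Irf7 and Irf9. Its reads were 452, 495 and 185 in WT, PS19 and PS19 Zbp1+/-, so that WT and PS19 were alike within counting error at a ratio of 1.09 (0.960 to 1.24) and PS19 Zbp1+/- stood below both. The likeness of WT and PS19 depended on the scaling. TPM scaling adds 0.13 to each log2 ratio of PS19 over WT, which lifts the interval of Irf3 above 1. Adarb2, the brain-specific and catalytically inactive relative of Adar, followed Adarb1 and not Adar, with 378, 584 and 332 reads and ratios of 1.54 (1.35 to 1.76) for PS19 over WT and 0.621 (0.541 to 0.712) for PS19 Zbp1+/- over PS19. Both genes were chosen after their values were seen, and no explanation was tested.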
